A study of Mus musculus with 8 samples.

Results

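The TGF-β superfamily is a group of secreted dimeric ligands that includes the TGF-βs, the bone morphogenetic proteins (BMPs), the growth and differentiation factors and myostatin. This report describes 10 of its ligands, receptors and antagonists in sorted muscle satellite cells (SCs), chosen by gene symbol from the 52636 genes of the deposited table. They are the ligands Tgfb1, Tgfb2, Tgfb3, Bmp4, Gdf10 and Mstn, the receptors Tgfbr2 and Tgfbr3, and the antagonists Fst and Fstl1. A ligand brings together type I and type II receptor kinases at the cell surface, and the type I kinase phosphorylates Smad proteins, which enter the nucleus with Smad4. Secreted antagonists bind ligands and keep them from their receptors. In skeletal muscle, myostatin limits growth, follistatin blocks myostatin and activins, and TGF-β1 is known for its part in fibrosis and for restraining myogenic differentiation.

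RNA sequencing compared SCs from 4 libraries of control mice, which did not train, with SCs from 4 libraries of exercise mice, which ran on a treadmill for 4 weeks, on 4 days per week, for 30 min per day at 12 m per min. All were male C57B/6J mice that were 10 weeks old at the start, and the labels name no transgene, deletion or drug in any group. Each library was made from polyA RNA of about 800 cells of the tibialis anterior muscle, sorted as CD34+ integrin α7+ cells without the lineage markers CD45, CD11b, CD31 and Sca1, with amplification by a single-cell RNA kit. The study counts mice as its replicates, but the labels do not tie a library to a mouse, and the p-values measure the spread between these libraries.

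Values are FPKM, reads scaled by gene length and by library size, so levels can be compared between genes. Every deposited value came out as a whole number of reads when multiplied by gene length, within a tolerance of 0.001, and the reads are given beside the FPKM. Control libraries held 2339966 to 3013354 reads on genes and exercise libraries 1011737 to 1200221. A count of 0 was read as allowing up to 3 reads in that library, for the error of counting alone, because reads from amplified material are not separate molecules.

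The libraries were not alike within their groups. Exercise 1 and exercise 2 differed from each other by a chi-square per degree of freedom of 3.86 over genes with at least 10 reads, while all other pairs of libraries differed by 82.6 to 721. Exercise 4 had a size factor of 0.167 and the values of that library summed to 2488142 FPKM, against 331669 to 637095 in the others of its group. The mitochondrial share of reads was 50.2% in exercise 3, 68.7% in exercise 4 and 2.09% to 15.3% in the other 6 libraries. Control 4 stood between control 1 and control 3. For the 345 genes read in control 1 (50 reads or more) but not in control 3, the level in control 4 was 0.281 of that in control 1 at the median, per read of the library. For the 658 genes read in control 3 but not in control 1 it was 0.714 of that in control 3. Exercise 3 likewise held 0.299 of the exercise 1 level and 0.677 of the exercise 4 level of genes that the other of the pair lacked. The 8 libraries may thus not be independent samples. Each SD, n = 4 and permutation p below treats them as if they were, and the main results are also given without these libraries.

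The label of the cells was set against their markers. Of 12 SC genes, 8 had a read in any library. Pax7, Cdh15 and Calcr, which mark SCs, and Itga7, which encodes the integrin α7 of the sort, had no read in any of the 8 libraries, Myf5 had 3 reads in control 2 and 1 read in control 3, and Myod1 had 6 and 7 reads in control 3 and control 4. Cd34, the other positive marker of the sort, Sdc4 and Des were read in all 8 libraries. Of the markers the sort excluded, Ly6a, which encodes Sca1, had 33, 13 and 13 reads in control 2 to 4. It had 15, 4 and 7 reads in exercise 1 to 3 and 0 in control 1 and exercise 4. Ptprc (CD45), Itgam (CD11b) and Pecam1 (CD31) had 0 reads in all 8 libraries. Chodl was the 1 SC gene of the list that was called, lower at 0 in all exercise libraries against 3.29 to 16.5 FPKM in control libraries (limma adjusted p 0.00881). Vcam1 and Cxcr4, like Myf5 and Myod1, had reads in control libraries only. In the other direction, Cd34 stood at 0.1196 to 1.48 FPKM in control and 1.90 to 9.63 FPKM in exercise libraries, without overlap (limma adjusted p 0.0670), and Sdc4 at 3.25 to 33.8 and 30.0 to 76.1 FPKM (limma adjusted p 0.101). The lowest exercise value of Cd34, in exercise 4, came from 4 reads and rests on the small size factor of that library. Cd34 had 2, 14, 42 and 37 reads in control 1 to 4. The 12 genes summed to 58.6 to 76.9 FPKM in control and 67.1 to 124 FPKM in exercise libraries. Des and Sdc4 gave most of that sum. Des alone gave 40.3 of the 60.2 FPKM in control 1 and 92.4 of the 124 FPKM in exercise 4, and Sdc4 gave 76.1 of the 95.6 FPKM in exercise 1. In bulk RNA of this kind, fewer cells of a type and less RNA per cell cannot be told apart.

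Of the 10 members, 9 had a read in any library and Gdf10 had none. The members fell into 3 patterns. The 2 antagonists Fst and Fstl1 were higher in all 4 exercise libraries than in any control library, which held for 2 of the 9 members with a read and for 4.09% of all genes with a read. The 5 ligands with reads had them in control libraries only. The 2 receptors overlapped between the groups. Only Fstl1, Fst and Tgfbr3 reached the mean of 1 FPKM over the 8 libraries that was required for the test across genes, and Fst, with a control mean of 0.0186 FPKM, passed that filter only through the exercise libraries. By limma with Benjamini-Hochberg adjustment, Fst and Fstl1 were higher in exercise libraries, beside 8.78% of the 4328 genes tested. Since the filter let Fst in through its high exercise levels, the share among the 3 members tested is not read against that percentage. With no filter the same 2 were called higher among the 9 members with a read, beside 2.59% of the 9029 genes with a read. With the filter, no tested member was called lower, beside 26.8% of the 4328 genes tested. Among the 4328 genes tested the median log2 difference was -1.42 (exercise minus control), so a gene at equal level in both groups stood above most of them. Without the filter it was -0.32 over 9029 genes.

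**Figure D1:**
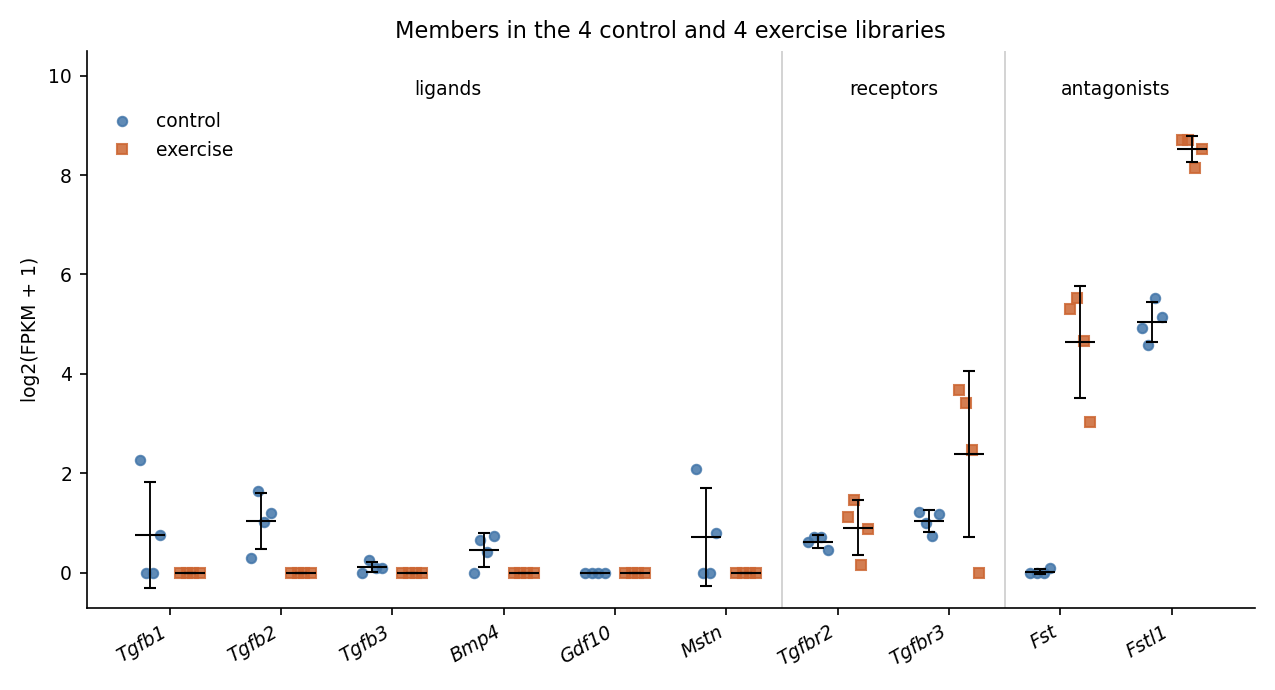
Each point is the level of a member in 1 library on the log2(FPKM + 1) scale, with 4 control libraries (circles) and 4 exercise libraries (squares). The horizontal bars are the group means and the error bars the SD. The exercise libraries lie above the control libraries for Fst and Fstl1, and all exercise libraries lie at 0 for the 6 ligands.

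Fstl1 encodes follistatin-like 1, a secreted glycoprotein with a follistatin domain that can bind BMPs, and was the most abundant member in both groups. The gene lies on the plus strand at chr16:37776873-37836514 of GRCm38. Fstl1 stood at 29.4, 22.8, 45.0 and 34.4 FPKM in control 1 to 4, from 331, 343, 864 and 674 reads. The exercise libraries 1 to 4 held 414, 415, 283 and 369 FPKM, from 3403, 3257, 1542 and 522 reads. The groups did not overlap, and the lowest exercise library was 6.28 times the highest control library. Mean levels were 32.9 ± 9.39 FPKM in control and 370 ± 62.1 FPKM in exercise libraries (SD, n = 4 each), an 11.3-fold difference of the means. On the log2(FPKM + 1) scale the difference was 3.48 with a standard error of 0.58 and a limma adjusted p of 0.00329, at rank 203 of the 4328 genes tested from the largest rise. The exact two-sided permutation p was 0.0286, the smallest that 4 libraries against 4 allow.

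Other scalings left the groups apart. As reads per 1000000 reads on genes (RPM), Fstl1 stood at 129 to 287 in control libraries and at 452 to 3219 in exercise libraries, with exercise 4 the lowest of its group and a 10.2-fold difference of the means. Without mitochondrial reads in the total, the control libraries held 144 to 339 RPM and the exercise libraries 1442 to 3490 RPM.

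The 250 bases before the RefSeq start of Fstl1 (GRCm38.p6, plus strand, chr16:37776805-37777054) are shown because Fstl1 is the most abundant member that rose. The window runs into the gene as the files place it.

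Fstl1: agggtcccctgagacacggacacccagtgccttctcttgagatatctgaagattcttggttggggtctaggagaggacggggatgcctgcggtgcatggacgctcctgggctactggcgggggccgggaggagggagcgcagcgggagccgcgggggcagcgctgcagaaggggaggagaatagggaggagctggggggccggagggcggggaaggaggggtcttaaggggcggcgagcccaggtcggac

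This window is 68% G or C and has no capitals, which mark E-boxes in the sequences printed here. An E-box (CANNTG, the same on both strands) is the kind of site that myogenic factors such as MyoD are known to bind. The Fstl1 window holds 0 of these, while 66.2% of 32817 RefSeq promoter windows of this length hold at least 1. It also holds 0 of the Smad-binding letters CAGAC on either strand, which 42.2% of all windows hold. A missing match says only that these letters are not in this window.

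Fst encodes follistatin, which binds activins and myostatin with high affinity. The gene lies on the minus strand at chr13:114452262-114458949 of GRCm38. In the control libraries 1 to 3 Fst had 0 reads, and in control 4 it had 1 read, or 0.0744 FPKM. In the exercise libraries 1 to 4 it had 219, 244, 91 and 7 reads, which stand for 38.8, 45.3, 24.3 and 7.20 FPKM. All 4 exercise libraries were above all 4 control libraries, with a mean of 28.9 ± 16.9 FPKM (SD, n = 4) in the former. Exercise 4 was the lowest of its group, and its 7 reads equal 7.20 FPKM because of the small size factor given above.

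Since the control group held 1 read of Fst, the size of the difference has a wide margin. Over the pooled libraries, the rate of Fst reads at the deposited library sizes was 1593 times as high in exercise as in control libraries, with an exact (Clopper-Pearson) 95% interval of 285 to 63024 that covers counting error only. The fitted log2 difference was 4.61 with a standard error of 0.71 and a limma adjusted p of 0.00235, and this size depends on the pseudocount of 1. The exact two-sided permutation p was 0.0286. Fst stood at 0 to 0.358 RPM in control libraries and at 6.06 to 241 RPM in exercise libraries.

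**Figure D2:**
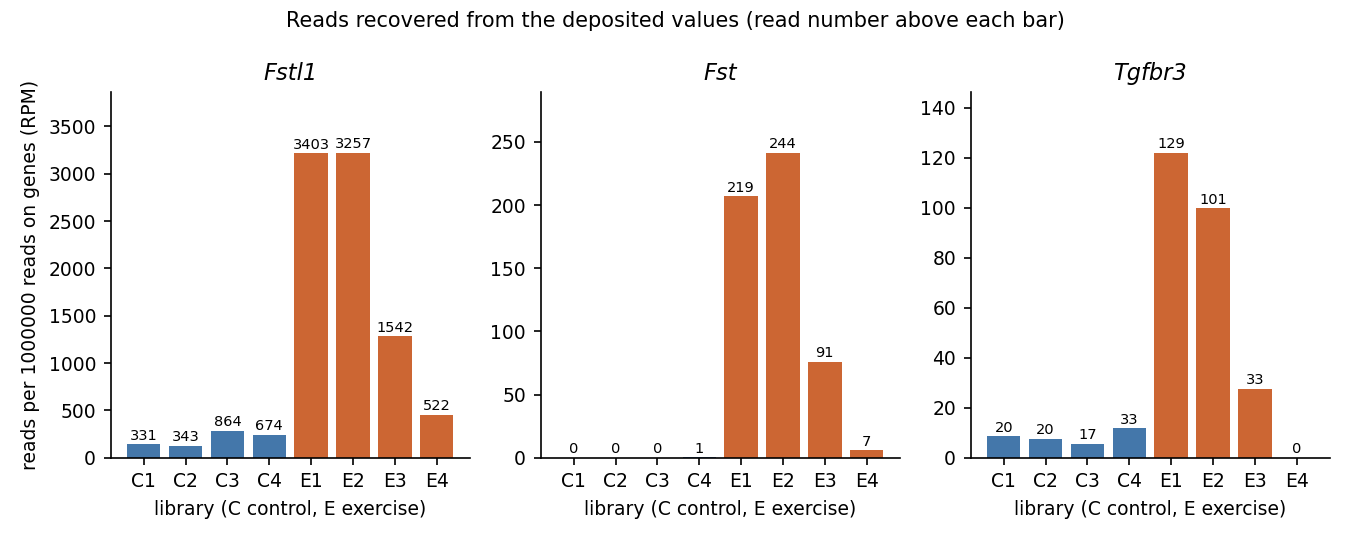
Bars give the RPM of Fstl1, Fst and Tgfbr3 in the control libraries (C1 to C4) and the exercise libraries (E1 to E4), and the number above each bar is the read number. Fstl1 and Fst are higher in every exercise library than in any control library and lowest within the exercise group in E4, where Tgfbr3 has no read.

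The calls of Fst and Fstl1 were run without the libraries in doubt. Leaving out each library in turn, the limma adjusted p lay between 0.000218 and 0.0125 for Fst and between 0.000943 and 0.0194 for Fstl1. With exercise 1 and 2 averaged as 1 sample and control 4 and exercise 3 left out, 3 control libraries stood against 2 exercise samples. The log2 differences were then 4.23 for Fst (limma adjusted p 0.353) and 3.61 for Fstl1 (limma adjusted p 0.408), of about the size seen with all libraries. No gene in the table was called in that fit, in which 469 genes had an unadjusted p under 0.05.

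Some markers of other cell types differed between the groups too, in both directions. All 10 markers of fibro-adipogenic progenitors, the mesenchymal cells of muscle, had reads, and their summed level was 1865 to 2975 FPKM in control and 2572 to 9539 FPKM in exercise libraries. Gsn alone gave 6902 of the 9207 FPKM of that sum in exercise 1. Of the 10, 3 were called higher in exercise libraries (Lum, Gsn and Clec3b) and 0 lower, beside 8.78% and 26.8% of all genes tested. Lum stood at 90.8 to 123 FPKM in control and 311 to 532 FPKM in exercise libraries. In exercise 4 Gsn stood at 1484 FPKM, within the 1173 to 1540 FPKM of control libraries. Clec3b was there at 52.5 FPKM from 15 reads, while control libraries held 63 to 134 reads of it. Pdgfra, which defines these cells, stood at 9.44 to 35.0 FPKM in control and 2.42 to 7.99 FPKM in exercise libraries, without overlap (log2 difference -1.65, limma adjusted p 0.0840), and Pi16 at 0 to 7.62 FPKM in control and 0 in all exercise libraries. All 8 tendon cell markers had reads, with sums of 659 to 1149 FPKM in control and 446 to 1733 FPKM in exercise libraries. Among them Scx, the transcription factor that marks tendon cells, was called higher (0 to 0.442 FPKM in control and 3.05 to 102 FPKM in exercise libraries), and Kera was called lower. Of 8 smooth muscle and pericyte markers 3 had reads, and Myh11 was called higher, at 0 in control and at 3.14 to 71.5 FPKM in exercise libraries. Acta2 was at 0.734, 0, 43.3 and 35.1 FPKM in control 1 to 4 and at 0 to 2.03 FPKM in exercise libraries (log2 difference -1.96, limma adjusted p 0.220), and Pdgfrb at 2.02 to 4.65 and 0.633 to 17.5 FPKM (1.15, 0.287), while Tagln, Rgs5, Cspg4, Kcnj8 and Abcc9 were at 0 in all libraries. Of 10 endothelial markers 3 had reads, with Tek called higher and Kdr called lower in exercise libraries, and Pecam1 and Cdh5 at 0. Tek stood at 0 to 0.0925 FPKM in control and 4.42 to 25.8 FPKM in exercise libraries. Kdr stood at 0, 2994, 1669 and 1076 FPKM in control 1 to 4 and at 0 to 0.530 FPKM in exercise libraries. Control 1 thus stood with the exercise libraries for Kdr, and the groups overlapped. All 10 immune markers were at 0 in all 8 libraries. Myofibre markers summed to 31512 to 64384 FPKM in control and 19124 to 52944 FPKM in exercise libraries, with reads for 9 of 10. Of these, 2 were called lower in exercise libraries, Mb (219 to 11445 FPKM in control, 0 to 202 FPKM in exercise libraries) and Myh1 (6.82 to 15.5 and 0 to 2.73 FPKM), and 0 higher. The part of these cell types in the levels of Fst and Fstl1 was not tested.

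Tgfbr3 encodes betaglycan, a coreceptor that presents TGF-β2 to the signalling receptors and also binds inhibin. The gene lies on the minus strand at chr5:107106570-107289629 of GRCm38. Tgfbr3 stood at 1.33, 0.998, 0.665 and 1.27 FPKM in control 1 to 4, from 20, 20, 17 and 33 reads. In exercise 1 to 4 it stood at 11.8, 9.67, 4.55 and 0 FPKM, from 129, 101, 33 and 0 reads. Exercise 1 to 3 were above every control library and exercise 4 was at 0, so the groups overlapped. In exercise 4 a count of 0 allows up to 1.59 FPKM, which is above every control value, so a lower level there was not detectable at this depth.

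The mean levels of Tgfbr3 were 1.07 ± 0.303 FPKM in control and 6.50 ± 5.29 FPKM in exercise libraries (SD, n = 4 each), a 6.10-fold difference of the means. The log2 difference of 1.36 had a standard error of 0.84 and a limma adjusted p of 0.198, and the exact two-sided permutation p was 0.143. Without exercise 4 the log2 difference was 2.15 with a limma adjusted p of 0.0125, so the call turned on exercise 4. With exercise 1 and 2 averaged and all other libraries kept or left out as above, Tgfbr3 was not called. Inside Tgfbr3 and on its strand lies Gm43423 (chr5:107158478-107160571), with 254, 216 and 147 reads in control 2, 3 and 4 and 0 reads in control 1 and the exercise libraries. Gm43423 thus had reads in control libraries only.

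Tgfbr2 encodes the type II receptor that binds TGF-β1 and TGF-β3 directly. The gene lies on the minus strand at chr9:116084293-116175360 of GRCm38. Its levels were 0.532, 0.638, 0.657 and 0.368 FPKM in control 1 to 4, from 10, 16, 21 and 12 reads. In exercise 1 to 4 they were 1.17, 1.76, 0.110 and 0.848 FPKM, from 16, 23, 1 and 2 reads. The exercise libraries held both the highest and the lowest values, and the exact two-sided permutation p was 0.4 for a 1.77-fold difference of the means. Exercise 3 gave the low value from 1 read, and without it the exact p was 0.0286, with a log2 difference of 0.53. That separation did not hold in RPM, where exercise 4, with 2 reads, stood at 1.73, below the 4.27 to 6.97 of the control libraries, while exercise 1 and 2 stood at 15.1 and 22.7.

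None of the 6 ligands had a read in any exercise library, and 5 had reads in control libraries only. Many genes shared that pattern, since 52.4% of the 9029 genes with a read in any library had reads in control and none in exercise libraries. The exercise libraries held fewer reads, and the part of depth in this pattern was not tested.

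Tgfb2 was the ligand read in all 4 control libraries, at 0.226, 2.14, 1.02 and 1.30 FPKM in control 1 to 4, from 3, 38, 23 and 30 reads. The gene lies on the minus strand at chr1:186622792-186705989. All 4 exercise libraries were at 0 and the groups did not overlap, as for 16.2% of genes with a read in that direction. Against the mean level that 3 reads in each exercise library allow, 0.725 FPKM, the control mean of 1.17 ± 0.791 FPKM (SD, n = 4) was at least 1.62-fold higher. Without exercise 4, whose depth sets most of that limit, the bound was 3.19-fold. The exact two-sided permutation p was 0.0286 with all libraries and 0.0571 when any exercise library was left out.

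Tgfb1 and Mstn shared a pattern that set 2 control libraries apart. Tgfb1, the best known TGF-β isoform (plus strand, chr7:25687002-25705077), had 44 reads in control 1 and 14 in control 4, or 3.80 and 0.70 FPKM, and 0 in all other libraries. Mstn, which encodes myostatin (plus strand, chr1:53061640-53068079), had 20 reads in control 1 and 8 in control 4, or 3.22 and 0.742 FPKM, and 0 in all other libraries. Control 2 and 3 thus stood with the exercise libraries, and the exact two-sided permutation p was 0.429 for each. Per read in the library, control 4 held 0.267 of the Tgfb1 and 0.335 of the Mstn level of control 1, near the median of 0.281 given above for genes of control 1 that control 3 lacks. Reads in control 1 and control 4 alone were found for 8.63% of genes with a read, and for 7 of the 61 members and pathway genes with a read. For Tgfb1 the control mean was at least 1.35-fold above the mean that 3 reads per exercise library allow, and 1 library, control 1, carried most of that mean. Without control 1 the mean was 0.232 FPKM, below that limit, and without exercise 4 the bound was 2.67-fold. The control mean of Mstn, 0.991 FPKM, was below the 1.55 FPKM that such counts allow, so a difference was not detectable at this depth. That limit turned on exercise 4, without which it was 0.786 FPKM and the control mean at least 1.26-fold higher, and without control 1 the control mean was 0.247 FPKM.

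The 250 bases before the RefSeq starts of Mstn (plus strand, chr1:53061390-53061639) and Tgfb1 (plus strand, chr7:25686752-25687001) are shown because these ligands had reads in the same 2 libraries. Capitals mark E-boxes (CANNTG).

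Mstn: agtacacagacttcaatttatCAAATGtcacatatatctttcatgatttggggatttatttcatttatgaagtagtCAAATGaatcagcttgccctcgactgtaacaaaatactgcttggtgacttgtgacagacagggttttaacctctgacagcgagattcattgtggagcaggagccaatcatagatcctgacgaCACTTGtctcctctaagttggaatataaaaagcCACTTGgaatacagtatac

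Tgfb1: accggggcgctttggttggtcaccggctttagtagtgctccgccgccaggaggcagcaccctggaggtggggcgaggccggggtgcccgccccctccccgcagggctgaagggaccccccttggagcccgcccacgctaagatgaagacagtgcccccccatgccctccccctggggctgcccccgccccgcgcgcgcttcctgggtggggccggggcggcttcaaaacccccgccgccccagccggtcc

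The Mstn window holds 4 E-boxes and is 38.4% G or C, and the Tgfb1 window holds 0 and is 75.2% G or C. Among the 7 members matched to a RefSeq promoter window, Bmp4 holds 3 E-boxes, Tgfb2 holds 1, and Tgfbr2, Gdf10, Tgfb1 and Fstl1 hold 0. The Smad-binding letters CAGAC are in the windows of Mstn (2), Tgfb2 (2), Tgfbr2 (1) and Gdf10 (1). The letters TATAAA are in those of Mstn and Tgfb2, beside 12.4% of all windows. These are matches of letters and not tested binding sites, and Tgfb3, Tgfbr3 and Fst were not matched.

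Bmp4 and Tgfb3 had the opposite pattern among control libraries. Bmp4, a ligand of the BMP receptors (minus strand, chr14:46383520-46390669), had 0, 4, 3 and 6 reads in control 1 to 4, at 0 to 0.677 FPKM. Tgfb3, the third TGF-β isoform (minus strand, chr12:86056745-86079041), had 0, 2, 1 and 1 reads, at 0 to 0.193 FPKM. Both had 0 reads in control 1, where Tgfb1 and Mstn were highest, a pattern of 13 of those 61 genes in all, each read in control 2, 3 and 4. The share of all genes with this pattern was not computed, so the count is not read as particular to these genes. Bmp4 and Tgfb3 both had 0 reads in exercise libraries, an exact two-sided permutation p of 0.143 with all libraries and of 0.0286 without control 1. Since control 1 was the control library without reads of them, leaving it out fixed that separation, and the lower p is no added support. Leaving out any other library gave 0.143. By voom on recovered reads the exact two-sided permutation p was 0.486 for Bmp4 and 0.657 for Tgfb3. Their control means were below the level that 3 reads per exercise library allow, so no fold is given. Gdf10, a BMP-related ligand (plus strand, chr14:33923587-33935280), had 0 reads in all 8 libraries.

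Ordered by mean FPKM in exercise libraries, the members ran from Fstl1 over Fst, Tgfbr3 and Tgfbr2 to the 6 ligands at 0. In control libraries Fstl1 again led, followed by Tgfb2, Tgfb1, Tgfbr3, Mstn, Tgfbr2, Bmp4, Tgfb3, Fst and Gdf10. In control libraries the values of all neighbours in this order from Tgfb2 downwards overlapped. In exercise libraries those of Fst and Tgfbr3, and of Tgfbr3 and Tgfbr2, overlapped. Fstl1 was above all other members in each of the 8 libraries.

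The members were next set beside 90 other genes of the pathway, of which 52 had a read and 29 were tested. Of the 29, 1 was called higher and 6 lower in exercise libraries, together 7, beside 35.6% of all genes called in either direction. Their median log2 fold change was -1.28, close to the -1.42 of all genes tested. Of the 52 with a read, 22 had reads in control libraries only, beside 52.4% of all genes with a read, and 3 in exercise libraries only. Groups did not overlap for 14 of the 52 with exercise below and for 1 with exercise above, beside 16.2% and 4.09% of all genes with a read.

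Among 24 other ligands, 5 had a read and 0 reached the test. Bmp2, the most abundant, stood at 0.613, 1.93, 1.51 and 1.06 FPKM in control and at 0 in all exercise libraries. Among 12 other receptors, 9 had a read, 8 of them in control libraries only, and 2 were tested with none called. Acvr2a, the type IIA activin receptor that also binds myostatin, was the most abundant with 15.8 and 3.49 FPKM in control 1 and 4 and 0 elsewhere (log2 difference -1.56, limma adjusted p 0.157).

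Of 17 other antagonists, 6 were tested and 1 was called. Nbl1, a BMP antagonist of the DAN family, fell from 3.43, 11.9, 9.58 and 4.94 FPKM in control libraries to 0 reads in exercise libraries (log2 difference -2.95, standard error 0.57, limma adjusted p 0.00650), at least 3.61-fold, or 7.13-fold without exercise 4. Nbl1 passed the filter only through the control libraries. Fst and Fstl1 thus went in the other direction from the one other antagonist that was called. Dcn, which encodes the proteoglycan decorin that binds TGF-β, was the most abundant gene of the pathway lists, at 1243 to 1900 FPKM in control and 1065 to 1580 FPKM in exercise libraries. Its log2 difference of -0.09 (standard error 0.42, limma adjusted p 0.863) was small at the deposited scale, and its sign changed under a read total without mitochondrial reads and under array quality weights. With the same FPKM sum it was -0.80 (limma adjusted p 0.363). In RPM, Dcn stood at 10181 to 10875 in control libraries and at 14578, 14214, 5746 and 2190 in exercise 1 to 4, which split the exercise group.

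Among 11 genes of latency and activation, 4 were tested and 1 was called. Thbs1, which encodes the TGF-β activator thrombospondin 1, stood at 22.7, 27.6, 14.6 and 18.7 FPKM in control 1 to 4. It stood at 150, 170, 91.8 and 30.9 FPKM in exercise 1 to 4, with no overlap at the deposited scale, as for 7.62% of genes tested. Its 5.29-fold difference of the means had a log2 value of 2.13, a standard error of 0.74 and a limma adjusted p of 0.0480. This call was lost in 13 of 22 alternatives, among them the leaving out of control 2, 3 or 4 or of exercise 1, 2 or 3, with a limma adjusted p of up to 0.125 in these. Exercise 4 was the lowest of its group, as for Fst. In RPM, Thbs1 stood at 115 to 193 in control libraries and at 1436, 1626, 515 and 46.7 in exercise 1 to 4. On that scale exercise 4, with 54 reads, was below every control library and the groups overlapped.

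All 5 Smads with a read were tested and 2 fell, beside 26.8% of all genes tested that were called lower. The 2, Smad4 and Smad3, had 0 reads in exercise libraries and passed the filter only through the control libraries. Their share is therefore not read against that percentage. Smad4, the common partner of the receptor-activated Smads, stood at 312, 90.3, 51.3 and 91.2 FPKM in control 1 to 4, from 2659, 1026, 744 and 1349 reads, and had 0 reads in all 4 exercise libraries. Against the exercise level that 3 reads allow, control libraries were at least 121-fold higher (log2 difference -6.76, standard error 0.72, limma adjusted p 0.000514). The bound was 68.6-fold without control 1 and 238-fold without exercise 4. Smad3, which carries the signal of TGF-β and activin receptors, stood at 0.393, 10.9, 5.69 and 4.17 FPKM in control libraries and at 0 in exercise libraries, at least 6.98-fold lower there (log2 difference -2.29, limma adjusted p 0.0327). The bound of Smad3 was 4.51-fold without control 2 and 13.8-fold without exercise 4, and its call was lost in 11 of 21 alternatives. Non-overlap with exercise below was found for 24% of genes tested.

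Of 9 intracellular regulators, 4 were tested and Strap, which binds TGF-β receptors and Smad7, was called. It fell from 31.9 to 93.3 FPKM in control libraries to 0 to 4.49 FPKM in exercise libraries (log2 difference -4.60, standard error 0.80, limma adjusted p 0.00386). Of 9 transcriptional targets, 8 were tested and 2 fell, Pmepa1 and Tgfbi, beside 26.8% of all genes tested that were called lower. Their exercise means were 0.507 and 0.443 FPKM, so both passed the filter only through the control libraries. The share is therefore not read against that percentage. Pmepa1, a TGF-β target that feeds back on Smad signalling, fell from 10.2 to 27.1 FPKM in control to 0 to 1.10 FPKM in exercise libraries (log2 difference -3.57, limma adjusted p 0.00391). Tgfbi, which encodes a matrix protein induced by TGF-β, fell from 6.24 to 14.5 FPKM to 0 to 0.957 FPKM (log2 difference -2.82, limma adjusted p 0.00891). With quantile normalization the calls of Tgfbi (-1.31, limma adjusted p 0.187), Pmepa1 (-2.20, 0.0612) and the antagonist Nbl1 (-1.85, 0.0564) were lost. The call of Smad3 was lost in that setting too. Id3, a BMP target and the most abundant of the list, stood at 90.8 to 116 FPKM in control libraries and at 8.68, 12.2, 29.7 and 149 FPKM in exercise 1 to 4 (log2 difference -1.87, limma adjusted p 0.123). At the deposited scale exercise 4 was above every control library, and without it the limma adjusted p of Id3 was 0.00671. In RPM, Id3 stood at 159 to 246 in control and at 24.6 to 66.6 in exercise libraries, with no overlap. These totals include mitochondrial reads, which made up 68.7% of exercise 4, and the separation was not checked without them. With a read total without mitochondrial reads, Id3 was not called. Id3 was called lower in 4 of 22 alternatives and was not called in the other 18, with a limma adjusted p of up to 0.572. Besides the fit without exercise 4, the calls came with libraries scaled to the same read total (log2 difference -2.35, limma adjusted p 0.0315), to the same FPKM sum (-2.59, 0.0212) and with array quality weights (-3.12, 0.000250).

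**Figure D3:**
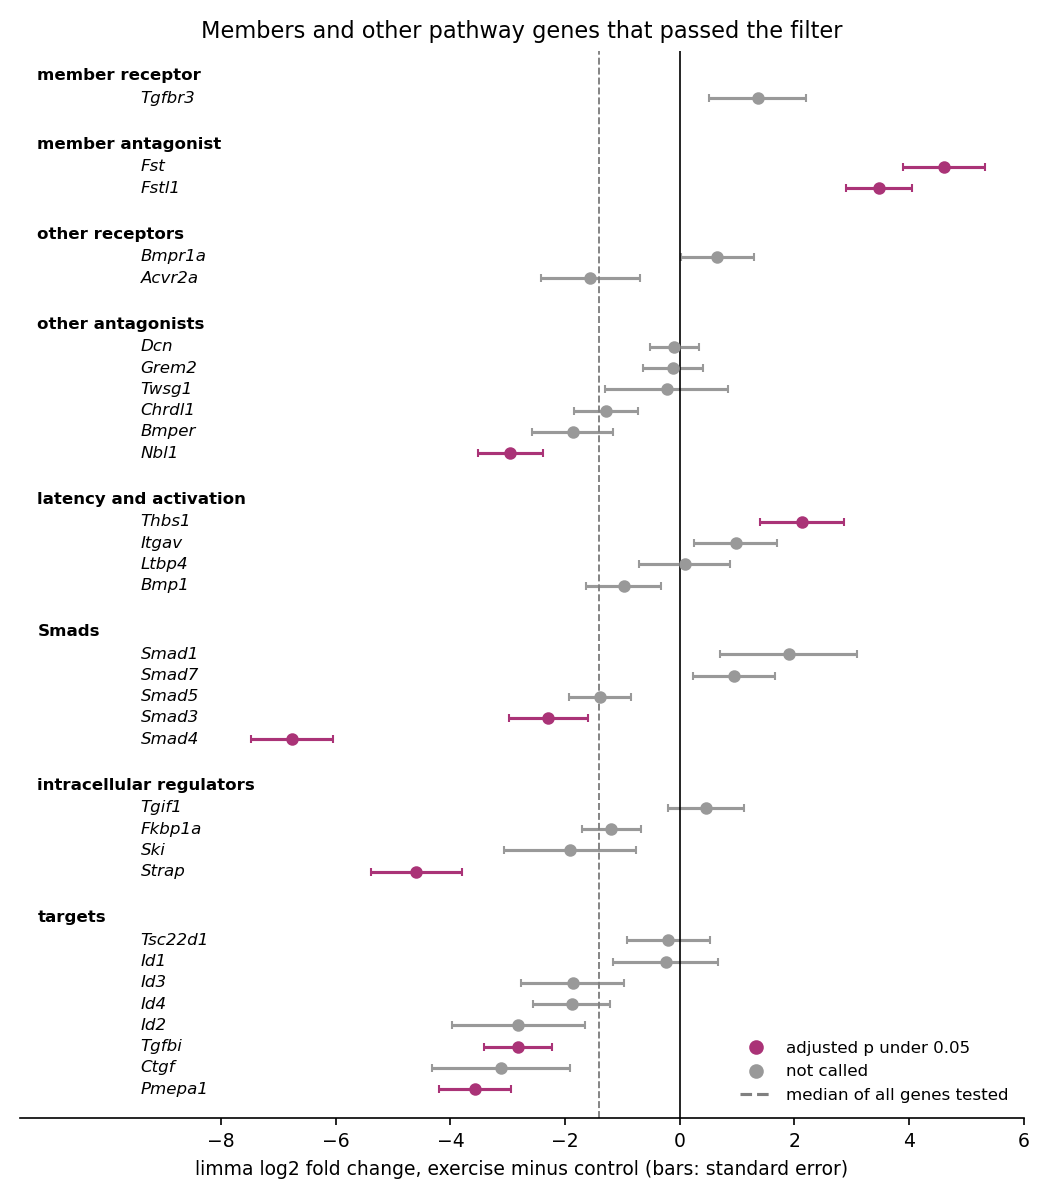
Points give the limma log2 fold change (exercise minus control, log2(FPKM + 1)) of the 3 members and 29 other pathway genes tested, with standard errors as bars. Coloured points have an adjusted p under 0.05 and the dashed line is the median of all genes tested, -1.42. Fst and Fstl1 lie farthest to the right and Smad4 farthest to the left.

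The genes whose levels followed the 3 most abundant members across the 8 libraries were sought among 4327 other tested genes by Pearson's r of log2(FPKM + 1). This is a description of 8 libraries in 2 groups, which share their depth and scaling within a group. For Fstl1 the closest were Gm14305 (r = 0.992), Crat (0.989) and Gdi2 (0.986), and 142 genes had r above 0.9. For Fst they were Dhrs7, Cpsf3 and Atp5sl (0.999 or above), and 342 genes had r above 0.9. For Tgfbr3 they were Tmed9 (0.983), Tgoln1 (0.976) and Arl15 (0.976), and 215 genes had r above 0.9.

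**Figure D4:**
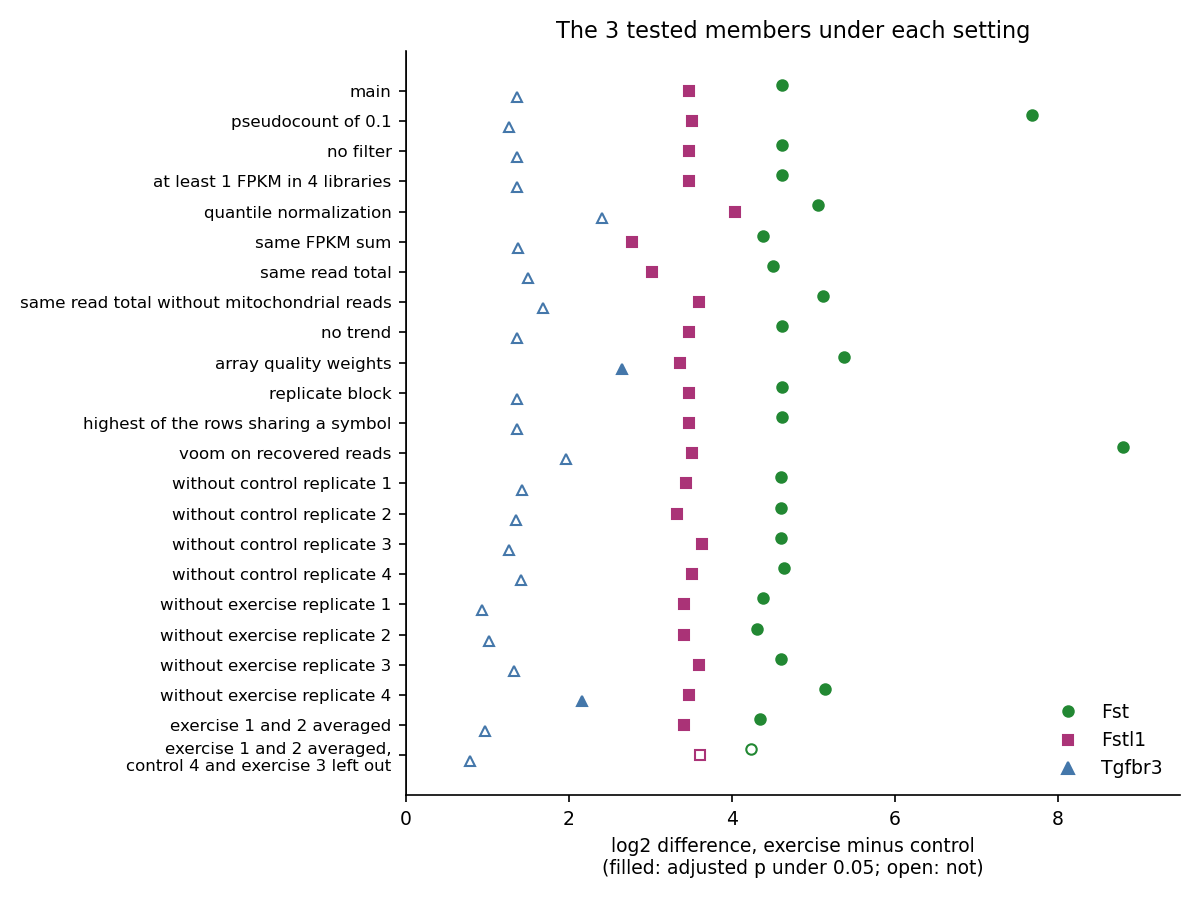
Each row is a processing setting and each point the log2 difference (exercise minus control) of Fst (circles), Fstl1 (squares) or Tgfbr3 (triangles), filled where the adjusted p was under 0.05. Fst ranged from 4.23 to 8.80 and Fstl1 from 2.78 to 4.04, and both were not called only with exercise 1 and 2 averaged and control 4 and exercise 3 left out. Tgfbr3 was called without exercise 4 and with array quality weights.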

How the data were processed

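RNA-seq libraries of SCs from 4 control and 4 exercise samples were grouped by their labels. The authors deposited FPKM values for each gene and library. Per the labels they aligned reads to mm10 with Bowtie 0.12.9 and used Cufflinks 2.1.1 and HTSeq. Each deposited FPKM, multiplied by exon length, was a whole multiple of 1 read, and its library size was a median-of-ratios size factor times the geometric mean of the read totals. All 8 value columns were used and 0 were left out. Rows sharing a symbol were summed, so 101 rows fewer remained.

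The test across genes was limma 3.58.1 (lmFit and trended eBayes, R 4.3.3) on log2(FPKM + 1), for mean levels of 1 FPKM or more, with Benjamini-Hochberg adjustment over 4328 genes, with a threshold of 0.05. Fold changes on this scale understate the change of low genes. Single members had an exact permutation test, two-sided, over the 70 assignments of libraries to groups (scipy 1.17.1, Python 3.11.15). Scripts were tested on simulated data. Depth was 1011737 to 3013354 reads per library, and intervals and floors (3 reads per library) cover counting error only.

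The members were taken by symbol and not by a threshold, but they and the pathway and marker lists were chosen with earlier results of these data known. Named were all members, pathway genes with an adjusted p under 0.05, the most abundant gene of each role, and for 3 members the 3 genes most like them. The rows of overlapping genes and the marker genes named were added for context. Positions are those of the files, and 8 of the 10 members (not Gdf10 and Fst) have the same coordinates in GENCODE M21 (GRCm38). Promoter sequences came from RefSeq (GRCm38.p6) and matched 7 of 10 members. Strandedness of the counting is not given in the sources used here. No coding sequence or protein was analysed here. Alternatives covered the pseudocount (0.1), filters, scaling, library weights, trend, the replicate block, voom on recovered reads and left-out libraries. The bounds without 1 library were added after seeing the data.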

Additional observations from a re-analysis of the deposited data

Results flagged for a closer look

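Dixon's criterion was applied to 38 groups of 4 libraries (the gap of the extreme library over the range of its group), and 3 values passed, where chance gives about 1 in 20 groups. Fst was at 0.104 on the log2(FPKM + 1) scale in control 4, from its 1 read, and at 0 in the other control libraries. Dcn was at 10.1 on that scale in exercise 3, below 10.6 in the other exercise libraries. The FPKM sum of exercise 4 was 2488142, against 331669 to 637095 in the other exercise libraries.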

How the results depend on the processing

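Of 475 values recomputed for 22 results, 354 values of single genes kept their direction and side of the threshold, 50 counts of called genes stayed within 1.5 times, 41 lost the threshold, 9 gained it, 16 were counts that moved by over 1.5 times and 5 changed sign. The 1541 genes called became 840 without a filter, 941 with quantile normalization, 2978 with array quality weights, 596 with exercise 1 and 2 averaged, and 527 to 1899 when each library was left out. With exercise 1 and 2 averaged and control 4 and exercise 3 left out, no gene (0 of 4499, 0 members, 0 pathway genes) was called by limma and 469 had an unadjusted p under 0.05, Fst was at 4.23 and Fstl1 at 3.61, with fewer samples in the fit. Members called were 2 to 3 and pathway genes called 5 to 12 when each library was left out, and pathway genes were 4 with quantile normalization and 16 with array quality weights. Tgfbr3 was called at a log2 difference of 2.65 with array quality weights and ranged from 0.93 to 2.15 over left-out libraries, called only without exercise 4. Fst ranged from 4.31 to 5.14 and Fstl1 from 3.32 to 3.64 over left-out libraries. Signs changed for Tgfb3 (0.38, voom) and Dcn (0.014 with a read total without mitochondrial reads, 0.18 with array quality weights, and -0.184 to 0.0401 over left-out libraries, above 0 without control 1 and without exercise 3), none of them past the threshold, and the cause was not tested. By voom, Gdf10, with 0 reads in all 8 libraries, also stood above 0, at 1.75. Quantile normalization gave 566 genes higher and 375 lower, against 380 and 1161 as deposited and 302 and 1390 at the same read total, and its median log2 fold change over the 4328 genes tested was -0.44. The replicate block gave 1059 calls, with 2 members and 5 pathway genes (Smad3 at 0.0573 and Thbs1 at 0.0946 were lost). The numbers did not pair the samples, since same-numbered libraries had correlations of their deviations between -0.017 and 0.039. The read total without mitochondrial reads was chosen after seeing the data. Depth limits Tgfb3, Bmp4 and Mstn, whose control levels were below what 3 reads in each exercise library allow.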

Other observations

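Some pathway genes had levels that split the exercise libraries, and they were chosen here after their values were seen. Smad1, a Smad of the BMP receptors, was at 0 in exercise 1 and 2 and at 10.1 and 48.8 FPKM in exercise 3 and 4, with 0 to 0.975 FPKM in control libraries. Smad7, an inhibitory Smad, was at 0, 0, 0.598 and 9.21 FPKM in exercise 1 to 4 and at 0 to 0.0722 FPKM in control libraries. Itgb6, a subunit of the integrin that activates latent TGF-β, was at 0, 0, 0.888 and 3.42 FPKM in exercise 1 to 4, with 0 to 0.0353 FPKM in control libraries. Ltbp4, a latent TGF-β binding protein, was at 0, 0, 1.40 and 8.05 FPKM in exercise 1 to 4 and at 0 to 2.46 FPKM in control libraries. FPKM of exercise 4 are raised by its small size factor. In reads, exercise 3 and 4 held 70 and 88 for Smad1, 3 and 12 for Smad7, 7 and 7 for Itgb6, and 10 and 15 for Ltbp4, or 58.3 and 76.2, 2.4995 and 10.4, 5.83 and 6.06, and 8.33 and 12.98 RPM (reads scaled to a common library total). Exercise 1 and 2 held 0 reads of each of the 4 genes. In RPM, Ltbp4 in exercise 3 and 4 lay within the range of the control libraries, 0 to 20.6. These totals include mitochondrial reads, 50.2% in exercise 3 and 68.7% in exercise 4, and the range was not compared without them. Among control libraries Ski, a repressor of Smads, was at 51.9, 0.528, 0.0461 and 10.8 FPKM and the BMP target Id2 at 77.1, 1.47, 0.525 and 17.1 FPKM, with control 4 between control 1 and the pair of control 2 and 3. Itgb6 was below the filter, and limma called none of the others between the groups.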
